A study of Saccharomyces cerevisiae with 23 samples.

Results

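Budding yeast supplied with copper were grown with or without a statin, and the transcripts that differed between these cultures are described here. The compared groups are the samples labelled statin with CuSO4 and the samples labelled CuSO4 without statin, with 3 biological samples each. They were measured on 5 and 4 arrays, 9 of the 23 arrays and 6 of the 17 biological samples of the study. Arrays of the same RNA were averaged first, so that each biological sample counted once. Every culture was a single strain, BY4741a carrying a deletion of PDR5, which encodes a plasma membrane drug efflux pump. Both groups received 1 mM CuSO4, 0.25 mM EDTA, 2% glucose and 0.1% DMSO, and the statin group also received 5 µg/mL of a statin that the labels do not name. The other groups of the study were untreated, statin alone, 2 mM ZnSO4 and statin with ZnSO4, all in the same strain and with the same EDTA, glucose and DMSO. Per the labels, statin cultures had already been grown with the drug in a preculture begun at an OD600 of 0.09 against 0.01. Additions were made after resuspension in fresh medium at the same density. They were collected at an OD600 of about 0.4 against about 0.8, so that effects of the drug and of culture density cannot be told apart. The labels give separate biological replicates but not how the cultures were kept apart, so the p-values measure the spread between these samples.

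Statins block HMG-CoA reductase and so the supply of mevalonate, from which cells build isoprenoids and sterols. Yeast makes ergosterol in place of cholesterol. When its sterols run low, the transcription factors Upc2 and Ecm22 activate genes of ergosterol synthesis, sterol import and the mannoproteins of the anaerobic cell wall. Copper enters through the transporter Ctr1, activates the metallothionein genes through the transcription factor Cup2, and is needed by Fet3, the oxidase of high-affinity iron uptake.

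Levels are log2 ratios to a reference RNA, which was pooled over all 6 conditions. A difference of 2 such ratios is a log2 change, given with the standard error of limma's fit (3 biological samples a group). A gene was called where its Benjamini-Hochberg adjusted p was below 0.05, with 5606 genes tested. They are listed in the order of replicates 1, 2 and 3, and each replicate number had its own slide. PDR5 was above background on 0 of the 9 arrays, and so was HIS3, which is deleted in this strain background. The other marker genes of the background, LEU2, URA3 and MET17, were above background on 2, 4 and 7 arrays, at or below percentile 7.53 of the probe signals. The a-cell genes STE2, STE6, BAR1, MFA1, MFA2 and ASG7 were above background on 9 arrays, but so were the alpha-cell genes STE3 and SAG1, at percentiles of 18.8 to 30.8. BAR1, MFA1, MFA2 and ASG7 lay in a like range, at 14.9 to 39.5, and STE2 and STE6 at 41.1 to 74.2. AGA2, another a-cell gene, was above background on 8 arrays, and the alpha-cell genes MF(ALPHA)1 and MF(ALPHA)2 on 8 and 7. CUP1-1, the copper metallothionein gene, had mean log2 ratios of 1.07 with CuSO4 and 1.54 with statin and CuSO4, against -4.38 in untreated cells. Arrays of slide 3 were the dimmest in the study, with 77.1 to 89.9% of spots well above background against 95.7 to 98.8% on the others. Replicate 2 of statin with CuSO4 stood apart: it correlated over genes at r = 0.273 with replicate 1 and 0.629 with replicate 3, against 0.763 between those and 0.808 to 0.894 among the copper samples. List counts that moved by over 1.5 times without it are given both ways.

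In copper-supplied cells, statin changed the levels of 2486 of 5606 genes, 44.3% of those tested. Of these, 1182 were higher (21.1%) and 1304 lower (23.3%), and the median log2 change over all genes was 0.01. Changes over 2-fold were found for 225 called genes that rose and 233 that fell, and changes over 4-fold for 38 and 17. The 3 values of one group lay beyond all 3 of the other for 2278 of the called genes, against 49.4% of all genes tested (24% higher and 25.4% lower). Within the 3 slides, 2453 of the called genes had the same direction in each, which calling them on these samples makes likely. Without statin with CuSO4 replicate 2, 2770 genes were called, of which 2356 were called in the same direction with it.

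The genes that rose most were led by genes of sterol supply. PBI1 had log2 ratios of 0.95, 0.51 and 0.92 with statin and -4.11, -4.31 and -4.47 without it, a 34-fold rise (5.09 ± 0.13, adjusted p = 8.46e-13 in limma). HES1, which encodes an oxysterol-binding protein, stood at 1.12, 0.87 and 1.43 with statin and -3.80, -3.93 and -3.72 without it and rose 31.1-fold (4.96 ± 0.18, adjusted p = 8.71e-11). In both genes all statin samples lay above the reference and all copper samples far below it. SET4, which encodes a SET-domain protein, rose 17.8-fold (4.15 ± 0.24), and YMR317W rose by 3.86 ± 0.26. RTA1, whose product protects cells from the toxic sterol 7-aminocholesterol, rose by 3.06 ± 0.28, from a level above background on 3 of 4 copper arrays. PIR3, a cell wall protein gene, and NRG2, a transcriptional repressor gene, rose by 3.13 ± 0.27 and 3.04 ± 0.15. TMA10, a ribosome-associated protein gene, and YPL088W, a putative aryl alcohol dehydrogenase gene, rose by 2.78 ± 0.29 and 2.69 ± 0.13. Falls of like size were found for ZPS1, a gene of the zinc regulon (-3.42 ± 0.20), and for the lysine synthesis genes LYS20 (-3.22 ± 0.26) and LYS9 (-3.16 ± 0.28). CTP1, the mitochondrial citrate transporter gene, and OPT2, an oligopeptide transporter gene, fell too, with changes of -2.66 ± 0.22 and -2.51 ± 0.25. In all these genes, and in the other called genes named below except JLP1 and GNP1, the groups did not overlap. In bulk RNA, fewer cells with a transcript and less of it per cell cannot be told apart.

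**Figure D1:**
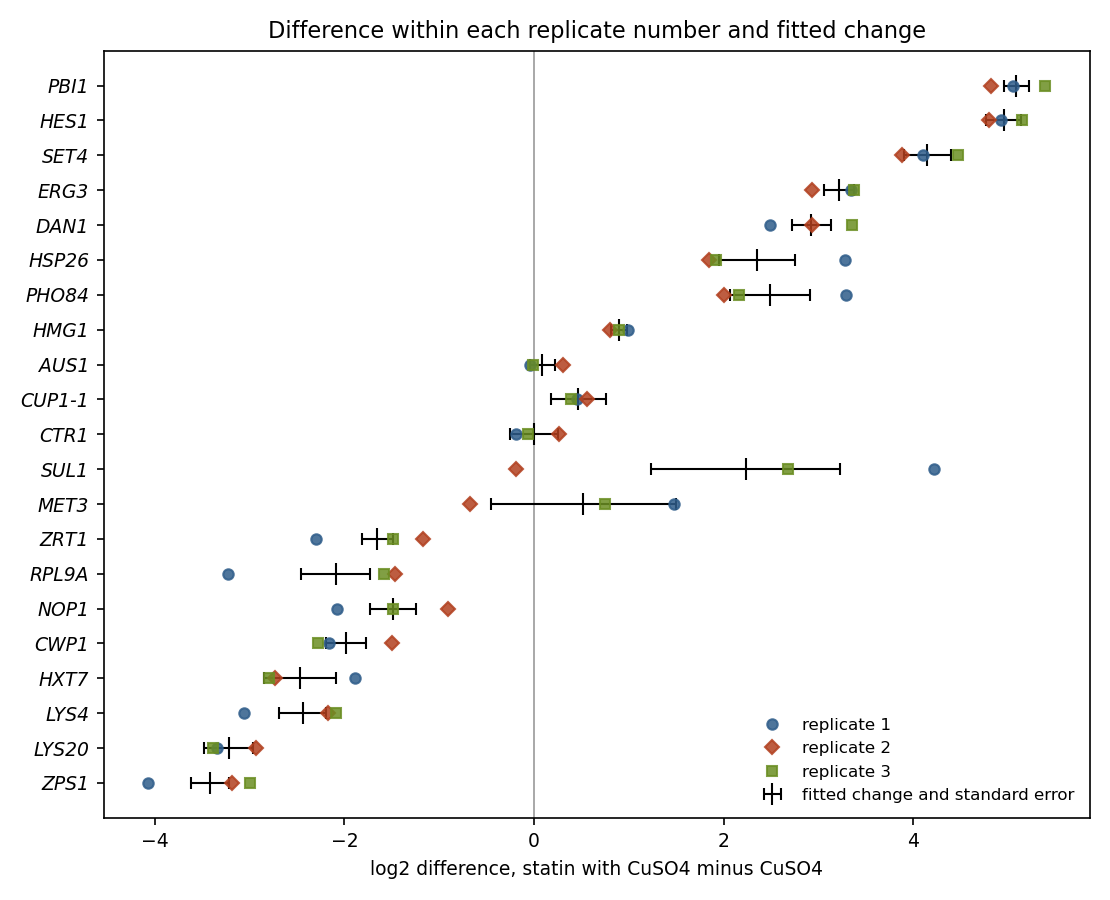
Log2 difference between statin with CuSO4 and CuSO4 for 21 genes, for replicate 1 (circles), replicate 2 (diamonds) and replicate 3 (squares), with the fitted change and its standard error over the 3 samples of each group (tick and bar). PBI1 to HMG1 lie above 0 and ZRT1 to ZPS1 below 0 in each replicate, whereas SUL1 and MET3 spread over several log2 units.

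All 16 genes of the ergosterol branch, which leads from farnesyl diphosphate to ergosterol, rose with statin in copper-supplied cells. Their median log2 change was 1.32, with a range of 0.81 to 3.22. Across all genes 21.1% were higher and the median was 0.01. ERG3, the sterol C-5 desaturase, had log2 ratios of 0.84, 0.43 and 0.82 with statin and -2.50, -2.50 and -2.55 without it. It rose 9.3-fold (3.22 ± 0.15, adjusted p = 1.69e-09), and its copper samples spanned only -2.55 to -2.50. ERG25, the C-4 methyl oxidase, stood at 1.36, 0.77 and 0.88 with statin and -1.88, -1.96 and -1.67 without it and rose 7.16-fold (2.84 ± 0.14, adjusted p = 1.69e-09). ERG5, the C-22 desaturase, stood at 1.25, 0.90 and 1.13 with statin and -1.49, -1.44 and -1.27 without it and rose 5.62-fold (2.49 ± 0.11, adjusted p = 1.22e-09). ERG2, the C-8 isomerase, and ERG24, the C-14 reductase, rose by 1.67 ± 0.11 and 1.20 ± 0.09. In each of these 5 genes every statin sample lay above 0 and every copper sample below it.

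The mevalonate pathway, which includes the target of the drug, changed less uniformly: 6 of 9 genes rose, 1 fell, and the median was 0.44. Leaving out replicates of the compared groups in turn gave 4 to 5 genes that rose and 0 to 1 that fell. HMG1, the HMG-CoA reductase gene most used with oxygen, had log2 ratios of 0.53, 0.40 and 0.49 with statin and -0.47, -0.40 and -0.41 without it and rose 1.86-fold (0.90 ± 0.08, adjusted p = 1.61e-06). HMG2, its paralog, stood at 0.04, -0.09 and 0.02 with statin and -0.22, -0.04 and 0.09 without it, a change of 0.05 ± 0.09 (adjusted p = 0.718). The groups were apart for HMG1 and overlapped for HMG2. ERG10, acetoacetyl-CoA thiolase, which opens the pathway, stood at 0.53, 0.96 and 0.77 with statin and -0.37, -0.16 and -0.38 without it and rose by 1.06 ± 0.16 (adjusted p = 0.000175). MVD1, mevalonate pyrophosphate decarboxylase, rose by 0.87 ± 0.19, and ERG8, phosphomevalonate kinase, by 0.86 ± 0.20. IDI1, isopentenyl diphosphate isomerase, was the member called lower, at -0.30 ± 0.10 (adjusted p = 0.0236). Its call was lost without statin with CuSO4 replicate 1 (adjusted p = 0.069) or 3 (0.11) and without CuSO4 replicate 1 (0.104).

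Genes that govern the degradation of HMG-CoA reductase and those of the branches that use its products had smaller median changes than the mevalonate pathway. Of 14 degradation genes 4 rose and 1 fell (median 0.17), against 21.1% higher and 23.3% lower over all genes, with NSG2, whose product stabilizes Hmg2, at 0.75 ± 0.14. Of 18 genes of prenylation, dolichol, ubiquinone and heme a synthesis, 2 rose and 3 fell (median -0.09), shares below those over all genes. MOD5, a transferase that puts an isopentenyl group on tRNA, stood at 0.82, 1.03 and 0.92 with statin and -0.44, -0.50 and -0.32 without it and rose by 1.35 ± 0.14 (adjusted p = 4.11e-06). STE14, the methyltransferase that completes prenylated proteins, fell, with a log2 change of -0.75 ± 0.15.

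Among 20 genes of sterol uptake, traffic and their regulators, 6 rose and 4 fell (median 0.25), where 21.1% of all genes rose and 23.3% fell. Changes in this list ranged from -0.66 to 5.09, and the 4 genes that fell are not among those named. With the replicate number as a block 11 rose and 4 fell, where 3055 of the 5606 genes tested were called. UPC2, the sterol-sensing transcription factor, had log2 ratios of 0.78, 0.45 and 1.00 with statin and -1.48, -1.74 and -2.03 without it and rose 5.65-fold (2.50 ± 0.20, adjusted p = 3.22e-07). The ABC transporters Pdr11 and Aus1 import sterols into cells that cannot make them, and their genes differed. PDR11 stood at 0.11, 0.06 and 0.22 with statin and -1.50, -1.40 and -1.32 without it and rose 2.9-fold (1.54 ± 0.14, adjusted p = 1.31e-06). AUS1 stood at -0.88, -0.60 and -0.86 with statin and -0.84, -0.91 and -0.86 without it, a change of 0.09 ± 0.13 (adjusted p = 0.606). All 6 AUS1 values lay between -0.91 and -0.60, and the groups overlapped. In statin cells without metal AUS1 had a mean of 1.69 and rose over untreated cells by 2.72 ± 0.13, and with ZnSO4 its statin change was 0.47 ± 0.15 (adjusted p = 0.0285). The statin change of AUS1 was lower with CuSO4 than without metal (interaction, the difference of the log2 changes, -2.64 ± 0.19, adjusted p = 2.14e-06), and that of PDR11 also differed (-1.14 ± 0.20, adjusted p = 0.00114). YEH1, a steryl ester hydrolase gene, and ARE1, a sterol acyltransferase gene, rose by 1.94 ± 0.15 and 0.90 ± 0.12.

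Of the 8 DAN and TIR genes, which encode mannoproteins that replace aerobic wall proteins when oxygen is scarce, 7 rose and 0 fell, with a median of 1.50. DAN1 had log2 ratios of 0.61, 0.95 and 0.76 with statin and -1.88, -1.98 and -2.60 without it and rose 7.61-fold (2.93 ± 0.21, adjusted p = 1.1e-07), from a level above background on 3 of 4 copper arrays. TIR3 stood at 0.19, 1.15 and 0.14 with statin and -1.71, -1.85 and -1.63 without it and rose by 2.22 ± 0.26; its replicate 2 was the highest of the statin samples. TIR4 rose by 1.70 ± 0.18 but stayed below the reference in each statin sample (-0.60, -0.59 and -0.35), whereas statin cells without metal had a mean of 1.36 (interaction -1.45 ± 0.25, adjusted p = 0.00122). Of 11 hypoxic genes under heme and Rox1 control 2 rose and 3 fell, close to the 21.1% higher and 23.3% lower over all genes (1 rose and 3 fell without statin with CuSO4 replicate 2). AAC3, the anaerobic ADP/ATP carrier, and ANB1, the anaerobic form of the translation factor eIF5A, fell, with log2 changes of -1.27 ± 0.17 and -0.80 ± 0.21.

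**Figure D2:**
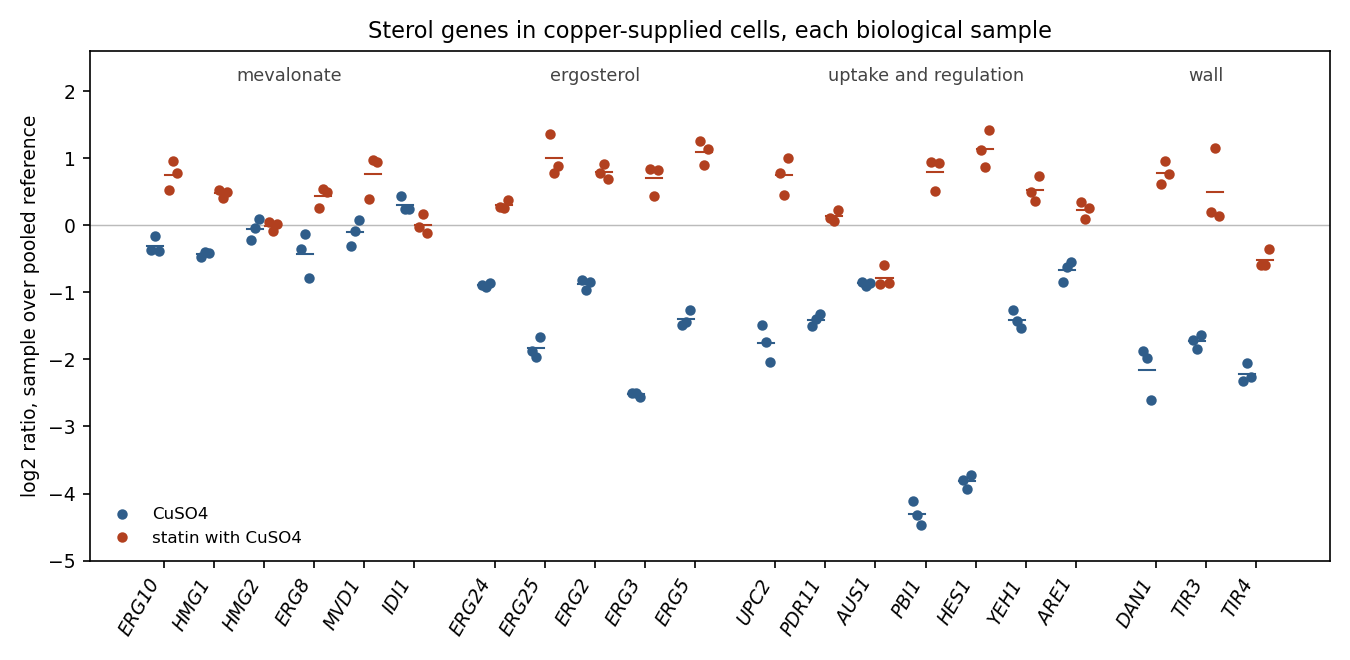
Log2 ratio to the pooled reference for sterol genes in the 3 samples of CuSO4 and the 3 of statin with CuSO4 (points, replicates 1 to 3 from left to right; lines, group means). The groups are apart for all genes drawn except HMG2 and AUS1.

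Other lipid lists differed from each other. Of 14 fatty acid genes 6 fell and 1 rose (median -0.38), where 23.3% of all genes fell and 21.1% rose. ELO1, a fatty acid elongase, stood at -1.01, -1.72 and -1.43 with statin and 0.39, 0.14 and 0.02 without it and fell 2.97-fold (-1.57 ± 0.19, adjusted p = 1.78e-05), and ELO3, which elongates very long chains, changed by -1.27 ± 0.21. Of 17 phospholipid genes 4 fell, near the share over all genes, and 1 rose (median -0.10), with CHO1, phosphatidylserine synthase, at -0.80 ± 0.15 and HNM1, the choline transporter, at -0.56 ± 0.15. Without metal 14 of these 17 genes fell with statin, and the statin change was less negative or more positive with CuSO4 for 8 of them by the interaction test. The shares over all genes were 18.8% for the former and 8.12% for the latter. Sphingolipid genes split, with 7 of 20 higher and 5 lower. YSR3, a sphingoid base phosphatase, stood at 0.38, 0.25 and 0.39 with statin and -2.19, -1.86 and -1.82 without it and rose 4.92-fold (2.30 ± 0.15, adjusted p = 5.66e-08). YPC1, a ceramidase, rose by 1.55 ± 0.16, and TSC10, which acts in the first steps of sphingoid base synthesis, changed by -0.89 ± 0.08. The groups did not overlap for these 3 genes.

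All these cultures held CuSO4. Copper defence had 1 of 6 genes higher with statin and 0 lower, and copper uptake and delivery 1 of 8 higher and 2 lower. The shares over all genes were 21.1% higher and 23.3% lower. CUP1-1 stood at 1.99, 1.17 and 1.46 with statin and 1.53, 0.61 and 1.07 without it, a change of 0.47 ± 0.29 (adjusted p = 0.208, and 0.048 with the replicate number as a block), and the groups overlapped. Its near-identical copy CUP1-2 can share its signal. CUP2, the copper-sensing activator of the metallothionein genes, stood at 0.70, 0.48 and 0.46 with statin and -0.70, -0.56 and -0.63 without it and rose 2.26-fold (1.17 ± 0.10, adjusted p = 8.22e-07). It was the member called among 6 copper defence genes, while 4 rose under the block and 2 without statin with CuSO4 replicate 2. The block called 3055 of the 5606 genes tested. CTR1, the copper importer, stood at -2.92, -2.54 and -2.57 with statin and -2.73, -2.81 and -2.51 without it, a change of 0.01 ± 0.25 (adjusted p = 0.99), far below its mean of 1.22 in untreated cells. COX17, the copper chaperone of cytochrome oxidase, fell, with a change of -1.13 ± 0.18 (adjusted p = 0.000246), and CTR3, a copper transporter, changed by -0.57 ± 0.12.

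Of 28 iron regulon genes 6 rose and 6 fell, close to the shares over all genes. FET3, the copper-dependent iron uptake oxidase, had log2 ratios of -1.18, -1.47 and -1.47 with statin and -0.32, -0.29 and -0.85 without it and fell, with a change of -0.89 ± 0.18 (adjusted p = 0.00123). ENB1, a siderophore transporter, and VHT1, the biotin transporter, changed by -0.80 ± 0.19 and -1.63 ± 0.29, whereas HMX1, heme oxygenase, rose by 1.22 ± 0.22. BIO2, biotin synthase, an iron-sulfur enzyme, fell with a change of -1.51 ± 0.28 (levels -0.88, -1.43 and -0.78 with statin and 0.63, 0.06 and 0.75 without it). LEU1, which encodes a leucine synthesis enzyme with an iron-sulfur cluster, stood at 0.12, 0.82 and 0.55 with statin and 0.76, 1.37 and 0.47 without it, a change of -0.37 ± 0.26 (adjusted p = 0.264) with overlapping groups.

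Zinc regulon genes, the targets of the activator Zap1, were lower in 8 of 16 cases and higher in 1, with a median of -0.49. The shares over all genes were 23.3% lower and 21.1% higher. ZPS1 stood at -2.54, -2.04 and -2.24 with statin and 1.53, 1.15 and 0.76 without it and fell 10.7-fold (adjusted p = 1.23e-08). ZRT1, the high-affinity zinc transporter, stood at -0.95, -0.23 and -0.33 with statin and 1.35, 0.95 and 1.16 without it and fell 3.15-fold (-1.65 ± 0.16, adjusted p = 3.05e-06). ADH4, an alcohol dehydrogenase gene that Zap1 activates, and ZAP1 itself changed by -1.72 ± 0.13 and -0.92 ± 0.19. Each statin sample lay below each copper sample in these 4 genes. The falls of ZRT1 and ZPS1 were greater than those without metal (interactions -0.95 ± 0.23 and -1.54 ± 0.28, adjusted p = 0.0083 and 0.00144). That of ZAP1 was not called as different (-0.04 ± 0.27, adjusted p = 0.938). Over the 16 genes the median interaction was -0.01, called lower for 3 and higher for 1, where 10.3% and 8.12% of all genes were. Statin alone lowered 10 of the 16 and raised 0 (median -0.62), where 18.8% of all genes fell and 18% rose.

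Lysine synthesis genes fell with statin in copper-supplied cells. Of the 9 genes 8 fell and 0 rose, with a median of -1.82, against 23.3% of all genes lower. LYS20, which encodes the homocitrate synthase that opens the pathway, had log2 ratios of -2.81, -2.36 and -3.33 with statin and 0.53, 0.57 and 0.05 without it and fell 9.33-fold (adjusted p = 4.02e-07). LYS21, its paralog, changed by -1.77 ± 0.16. LYS4, homoaconitase, stood at -1.12, -0.89 and -1.18 with statin and 1.94, 1.29 and 0.90 without it and fell 5.43-fold (-2.44 ± 0.25, adjusted p = 3.8e-06). LYS12, homoisocitrate dehydrogenase, and LYS2, which reduces the aminoadipate intermediate, changed by -2.19 ± 0.23 and -1.52 ± 0.16. LYS9 and LYS1, which encode the saccharopine dehydrogenases of the last steps, had changes of -3.16 and -1.82 ± 0.17. All statin samples were below all copper samples in these 7 genes. The list's mean log2 ratio was -1.35, -1.20 and -1.50 in the samples with statin and CuSO4 and 0.84, 0.51 and 0.22 in those with CuSO4. It was -1.55, -1.83 and -1.72 with statin alone and -0.79 and -0.16 with statin and ZnSO4. The statin change was more negative with CuSO4 than with ZnSO4 for 7 of the 9 genes, a difference called lower for 7.58% of all genes (9.94% either way). Statin alone lowered 8 of the 9 genes too (median -1.60), where 18.8% of all genes fell. The interaction against no metal had a median of -0.11. It was called higher with CuSO4 for 1 gene and lower for 1, where 8.12% and 10.3% of all genes were.

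Other amino acid genes moved in parts, where 23.3% of all genes fell and 21.1% rose. Of 14 arginine genes 5 fell and 3 rose (median -0.25). ARG1, argininosuccinate synthase, stood at -2.39, -1.07 and -2.16 with statin and -0.30, 0.16 and -0.27 without it and changed by -1.73 ± 0.29 (adjusted p = 0.000366). ARG3 and ARG8, which act in ornithine and citrulline synthesis, changed by -1.96 ± 0.27 and -1.91 ± 0.23, and CAR1, the arginase that breaks arginine down, rose by 0.99 ± 0.20. The fall of ARG1 was smaller than without metal (-4.22 ± 0.29, interaction 2.49 ± 0.42, adjusted p = 0.00107). Of 17 amino acid and ammonium permease genes 8 fell and 1 rose. TAT1, a tyrosine and tryptophan permease, stood at -1.62, 0.65 and -0.26 with statin and 1.62, 1.84 and 1.04 without it and changed by -1.91 ± 0.40 (adjusted p = 0.00151), with replicate 2 the highest of the statin samples. Without metal TAT1 rose with statin by 2.20 ± 0.40, so the 2 changes had opposite signs (interaction -4.10 ± 0.56, adjusted p = 0.000551). Its means without statin were -1.06 in untreated cells and 1.50 with CuSO4. With statin they were 1.14 without metal and -0.41 with CuSO4. The interaction of TAT1 thus includes a difference between the cultures without statin. GNP1, a glutamine permease, changed by -2.10 ± 0.56, with levels of -2.38, 0.53 and -0.94 with statin and 1.73, 1.45 and 0.32 without it that overlapped between groups. Without statin with CuSO4 replicate 1 the change of GNP1 was -1.38 and that of TAT1 -1.30, and without replicate 2 that of GNP1 was -2.83. Branched-chain genes had 3 of 12 lower (5 without statin with CuSO4 replicate 2) and serine and one-carbon genes 3 of 14 lower, with 0 higher in either list (1 higher in the latter without that replicate).

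Among the sulfate genes, statin with CuSO4 replicate 2 lay apart from replicates 1 and 3. Sulfur genes take up sulfate, reduce it to sulfide and build methionine, cysteine and S-adenosylmethionine. Of the 10 genes of sulfate uptake and reduction, 0 were called by limma with all replicates (1 at an unadjusted p under 0.05), and the median change was 0.79, whereas without replicate 2 of statin with CuSO4 8 rose and the median was 1.83. Its same-numbered copper sample was low too, and without replicate 2 of both groups 5 rose, with a median of 1.24. With the replicate number as a block 0 were called. The list's mean log2 ratio was 0.23, -3.23 and -0.30 with statin and CuSO4 and -1.44, -3.00 and -1.41 with CuSO4, and replicate 2 was the lowest sample of both groups. Within slides the median difference was 1.38, -0.21 and 1.03. SUL1, a sulfate permease, stood at -0.15, -5.33 and -1.85 with statin and -4.37, -5.14 and -4.53 without it, a change of 2.23 ± 0.99 (adjusted p = 0.0802), and of 3.68 without that replicate (adjusted p = 0.00104) or 3.45 without replicate 2 of both groups (adjusted p = 0.00453). MET3, ATP sulfurylase, the first enzyme of sulfate activation, stood at -0.01, -4.38 and -0.37 with statin and -1.49, -3.71 and -1.12 without it, a change of 0.52 ± 0.98 (adjusted p = 0.687), and of 1.92 without that replicate (adjusted p = 0.0468). Without replicate 2 of both groups MET3 was not called (1.11, adjusted p = 0.188), nor with the block (adjusted p = 0.546). The groups overlapped in both genes.

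The other sulfur lists also held more called genes without that replicate. Of 16 genes of methionine, cysteine and S-adenosylmethionine synthesis 0 were called by limma (2 at an unadjusted p under 0.05), and without replicate 2 of statin with CuSO4 6 rose and 1 fell (without replicate 2 of both groups 4 rose and 1 fell, and with the block 0 rose and 2 fell). Of 12 genes of organic sulfur uptake and scavenging 2 rose and 1 fell, and without that replicate 7 rose and 1 fell, or 5 and 1 without replicate 2 of both groups. The list's median difference within slides was 1.68, -0.22 and 0.14. JLP1, the dioxygenase that frees sulfite from sulfonates, stood at 1.63, -3.44 and -1.45 with statin and -3.21, -3.52 and -3.81 without it and rose by 2.43 ± 0.86 (adjusted p = 0.0328), with groups that overlapped. Without statin with CuSO4 replicate 2 the change was 3.61. The call was lost without replicate 1 of statin with CuSO4 (1.07, adjusted p = 0.17) or 3 (0.0573) and without CuSO4 replicate 1, 2 or 3 (0.0589, 0.0691 and 0.0779). YCT1, a cysteine transporter, had a change of 1.81 ± 0.71 (adjusted p = 0.0503, and 0.0394 with the block). MET30, whose product restrains the sulfur activator Met4, was at 1.17 ± 0.46 (adjusted p = 0.051, and 0.022 with the block). HSU1, which acts in the incorporation of sulfide, rose by 2.11 ± 0.33 (adjusted p = 0.000211) with no overlap between groups. SAM4, which makes methionine from S-adenosylmethionine, was the member called lower, at -1.32 ± 0.28.

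With statin alone sulfur genes fell, and most of these changes differed from those in copper-supplied cells. Of the 10 sulfate genes 10 fell without metal (median -4.14), and the statin change was higher with CuSO4 for 10 of 10, with all samples and without statin with CuSO4 replicate 2. Over all genes that interaction was called for 18.4%, and called higher with CuSO4 for 8.12%. SUL1 changed by -5.99 ± 0.99 without metal (interaction 8.22 ± 1.41, adjusted p = 0.00114), MET3 by -5.58 ± 0.98 (interaction 6.10 ± 1.38, adjusted p = 0.0054), and SUL2, the other sulfate permease, by -5.10 ± 0.88 (interaction 6.08 ± 1.25, adjusted p = 0.00297). Cells with CuSO4 and no statin already had low means of SUL1, MET3 and SUL2, at -4.68, -2.10 and -1.92. Untreated cells had means of 0.83, 0.20 and 0.41. Statin alone gave -5.16, -5.38 and -4.69, and statin with CuSO4 -2.44, -1.58 and -0.94. These interactions thus include a difference between the cultures without statin. In copper-supplied cells SUL2 stood at 0.56, -3.58 and 0.19 with statin and -1.44, -3.11 and -1.22 without it, a change of 0.98 ± 0.88 (adjusted p = 0.381). MET10, a sulfite reductase subunit, CYS3, of cysteine synthesis, and PDC6, a minor pyruvate decarboxylase poor in sulfur amino acids, had changes of 1.28 ± 0.80, 0.76 ± 0.47 and 2.11 ± 1.00 (adjusted p = 0.208, 0.202 and 0.0992). Their interactions were 5.42 ± 1.13, 4.10 ± 0.66 and 5.57 ± 1.41. The interaction was called higher for 11 of 16 genes of methionine and cysteine synthesis and for 11 of 12 of organic sulfur uptake.

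**Figure D3:**
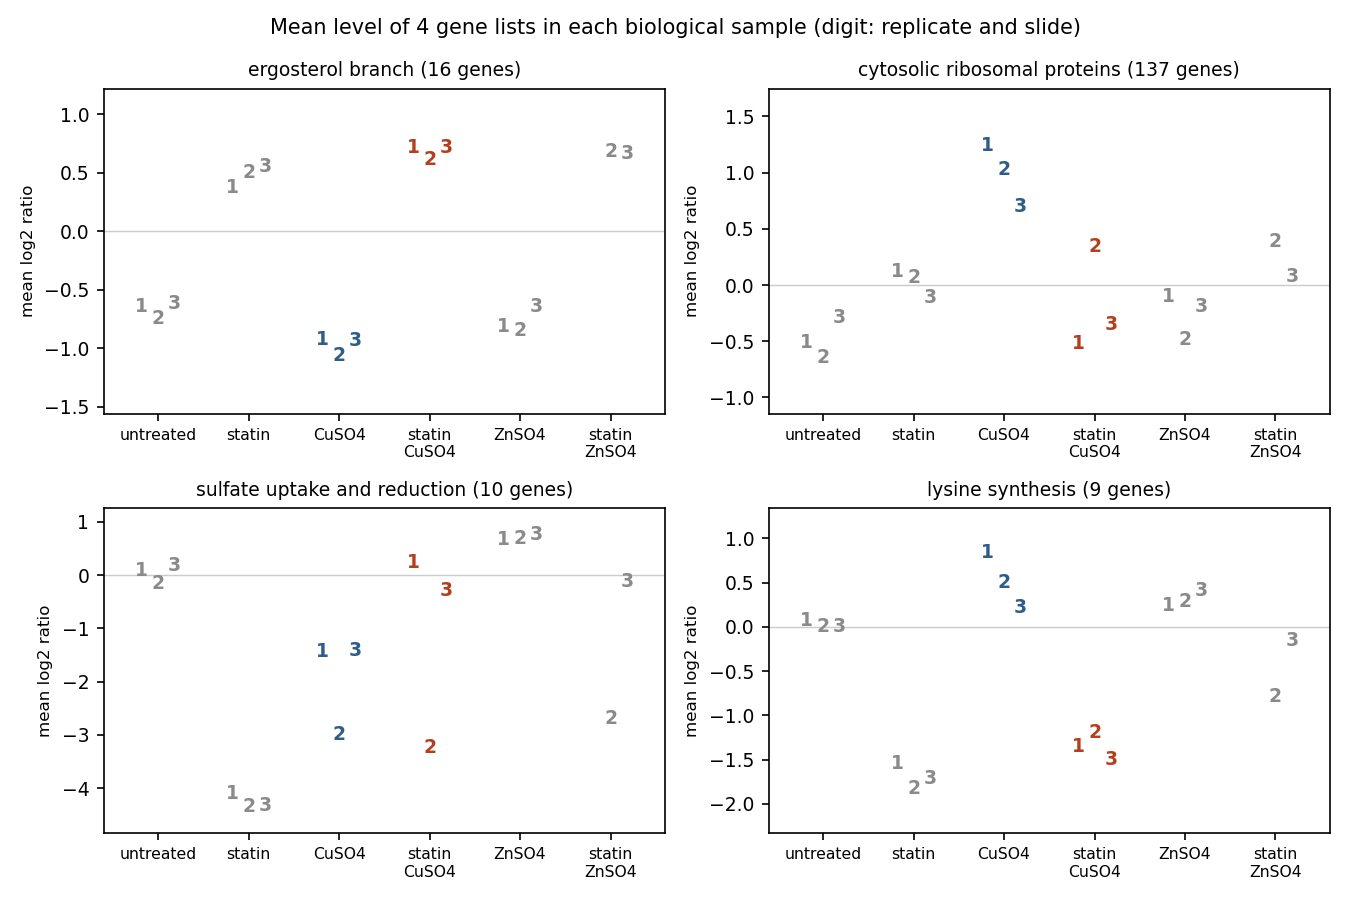
Mean log2 ratio to the pooled reference over the genes of 4 lists in each of the 17 biological samples, by group; the digit is the replicate number, which is also the slide. Statin with CuSO4 (red) lies above CuSO4 (blue) for the ergosterol branch and below it for ribosomal proteins and lysine synthesis, while its replicate 2 has a mean of -3.23 for sulfate genes against 0.23 and -0.30 in replicates 1 and 3.

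Genes of the translation machinery fell together. Of 137 cytosolic ribosomal protein genes 131 fell and 0 rose, with a median of -1.17, against 23.3% of all genes lower. Within slides the median difference was -1.81, -0.68 and -1.04. RPL9A, of the large subunit, stood at -1.29, 0.49 and -0.73 with statin and 1.94, 1.96 and 0.85 without it and fell 4.26-fold (-2.09 ± 0.36, adjusted p = 0.000406). RPS18A, of the small subunit, stood at -0.78, 0.26 and -0.63 with statin and 1.51, 1.25 and 1.09 without it and fell 3.18-fold (-1.67 ± 0.22), and RPL31B and RPL24A changed by -1.69 ± 0.24 and -1.54 ± 0.20. In each of the 4 genes replicate 2 was the highest of the statin samples and still below the copper samples. Probes may not tell ribosomal protein paralogs apart.

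The list's mean log2 ratio was -0.52, 0.34 and -0.35 with statin and CuSO4 and 1.24, 1.02 and 0.70 with CuSO4. It was -0.51, -0.64 and -0.29 in untreated cells and 0.12, 0.07 and -0.11 with statin alone. The copper samples without statin were therefore the highest of all 17, and the statin with CuSO4 samples overlapped the range of the other 4 groups. Without metal, 51 of the 137 genes rose with statin and 0 fell (median 0.53), and the statin change was lower with CuSO4 for 133, where 10.3% of all genes were. It was lower with CuSO4 than with ZnSO4 for 124, where 7.58% of all genes were. Without metal 18% of all genes rose with statin and 18.8% fell.

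Of 40 ribosome assembly genes 33 fell and 0 rose (median -0.73), where 23.3% of all genes fell and 21.1% rose. NOP1, the nucleolar methyltransferase known as fibrillarin in animals, stood at -0.79, 0.44 and -0.26 with statin and 1.28, 1.34 and 1.23 without it and changed by -1.49 ± 0.24 (adjusted p = 0.000284). NSR1, a nucleolar protein, and DBP2, an RNA helicase, changed by -1.28 ± 0.26 and -1.61 ± 0.30, whereas without metal they changed by 1.23 ± 0.26 and 0.99 ± 0.30 with statin. Their interactions were -2.51 ± 0.36 and -2.60 ± 0.42 (adjusted p = 0.000599 and 0.000937). The means of NSR1 and DBP2 were -1.26 and -1.03 in untreated cells and 1.10 and 1.10 with CuSO4. With statin alone they were -0.03 and -0.04, and with statin and CuSO4 -0.18 and -0.51. The interactions of these genes thus include a difference between the cultures without statin. The count of assembly genes that fell was 21 without statin with CuSO4 replicate 1. Mitochondrial ribosomal protein genes fell in 58 of 68 cases and rose in 0 (median -0.55). MRPL50 and RSM26, of the large and the small mitochondrial subunit, changed by -0.95 ± 0.10 and -0.86 ± 0.12, and the interaction was called for 1 of the 68. The proteasome had 2 of 32 genes higher and 0 lower (7 higher and 1 lower with the block, and 7 higher and 0 lower without statin with CuSO4 replicate 2).

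Energy metabolism changed gene by gene, where 23.3% of all genes fell and 21.1% rose. Of 22 genes of glycolysis and fermentation 10 fell and 1 rose (median -0.34; without statin with CuSO4 replicate 2, 11 fell and 4 rose), among them ENO2, an enolase, with levels of -1.38, -0.71 and -1.21 with statin and 0.36, 0.29 and 0.35 without it and a change of -1.43 ± 0.16. Of 11 hexose transport genes 5 rose and 2 fell. HXT7 and HXT6, near-identical high-affinity glucose transporter genes that a probe may not tell apart, changed by -2.47 ± 0.38 and -2.47 ± 0.33. HXT3, a low-affinity transporter, rose by 1.22 ± 0.20. Of 25 nuclear genes of the respiratory chain 8 rose and 0 fell (median 0.19), whereas without metal 17 fell with statin and 1 rose. Their statin change was higher with CuSO4 for 15, where 8.12% of all genes were. Without metal 18.8% of all genes fell with statin and 18% rose. SDH2, a succinate dehydrogenase subunit, stood at 1.09, 0.50 and 0.88 with statin and -0.02, 0.10 and 0.10 without it and rose by 0.77 ± 0.17, SDH4, another, rose by 0.90 ± 0.16, and QCR6, of complex III, by 0.59 ± 0.15. The change of QCR6 was 0.27 (adjusted p = 0.156) with median centring in place of loess, and 0.42 (0.114) without slide 3. ATP synthase had 0 of 12 genes called by limma (0 under the block, 0 at an unadjusted p under 0.05), with a median of -0.02.

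Stress and storage lists held more genes that rose than fell, where 21.1% of all genes rose and 23.3% fell. Of 26 heat shock genes 14 rose and 4 fell (median 0.38), of 21 general stress genes 8 rose and 0 fell, and of 16 glycogen and trehalose genes 9 rose and 0 fell (median 0.58). HSP26, a small heat shock protein, stood at 0.74, -1.29 and -0.12 with statin and -2.55, -3.14 and -2.05 without it and rose 5.12-fold (2.35 ± 0.40, adjusted p = 0.000384). HSP42, another, and HSP104, the disaggregase, rose by 1.73 ± 0.30 and 1.30 ± 0.18. TSL1, of trehalose synthesis, and NTH1, a trehalase, rose by 0.94 ± 0.16 and 1.22 ± 0.23. Replicate 2 was the lowest of the statin samples in these 5 genes, and the lists' medians within slide 2 were 0.13 for heat shock and 0.07 for glycogen and trehalose. For general stress genes the medians within slides 1, 2 and 3 were 1.02, 0.22 and -0.02. Of 22 oxidative stress genes 6 rose and 2 fell, with the peroxiredoxin gene TSA2 at 2.02 ± 0.24 and the NADPH oxidoreductase gene OYE3 at 1.91 ± 0.37.

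Of 21 cell wall integrity genes 12 rose and 2 fell (median 0.82), where 21.1% of all genes rose and 23.3% fell. Without statin with CuSO4 replicate 2, 1 fell. NCW2, a wall protein, stood at 0.83, 0.58 and 1.06 with statin and -1.57, -1.59 and -1.19 without it and rose 4.82-fold (2.27 ± 0.16, adjusted p = 1.04e-07). SLT2, the MAP kinase of the pathway, and PST1, a wall protein that it induces, rose by 1.17 ± 0.12 and 1.84 ± 0.18. CWP1, a mannoprotein of the aerobic wall, went the other way, from 0.26, 0.10 and 0.12 to -1.90, -1.40 and -2.16, a 3.95-fold fall (-1.98 ± 0.21, adjusted p = 5.66e-06). Without metal its change was -0.12 ± 0.21 (adjusted p = 0.693; interaction -1.87 ± 0.29, adjusted p = 0.000908). SPS100, a spore wall gene that rose by 3.66 ± 0.51 without metal, had a change of -0.15 ± 0.51 with CuSO4 (adjusted p = 0.833; interaction -3.81 ± 0.73, adjusted p = 0.0019).

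Drug resistance genes had 6 of 15 higher and 1 lower, where 21.1% of all genes rose and 23.3% fell. TPO4, a polyamine exporter, rose by 1.61 ± 0.17, and PDR12, a weak acid exporter, changed by -1.68 ± 0.18. Of 16 phosphate genes 5 rose and 4 fell, near those shares. PHO84, the high-affinity phosphate transporter, stood at 1.58, 0.65 and 1.66 with statin and -1.72, -1.37 and -0.51 without it and rose 5.62-fold (2.49 ± 0.42, adjusted p = 0.000338), against 0.48 ± 0.42 without metal (adjusted p = 0.394; interaction 2.01 ± 0.59, adjusted p = 0.0271).

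Setting the copper-supplied cells against the others shows how much of the statin change was shared. The comparisons share no sample, only the slides and the pooled reference, and statin with ZnSO4 had 2 biological samples. Statin alone changed 2065 genes (36.8%) and statin in ZnSO4 cells 1602 (28.6%). With CuSO4 and without metal, 1065 genes were called in the same direction, 570 higher and 495 lower, which is 42.8% of the copper list and 51.6% of the other. A further 182 were called in opposite directions, of which 162 fell with CuSO4 and rose without metal. With ZnSO4, 997 genes were called in the same direction (40.1% of the copper list and 62.2% of the zinc list) and 76 in opposite directions. Across genes, which are not independent replicates, the changes with CuSO4 correlated at r = 0.38 with those without metal and 0.48 with those in ZnSO4. The interaction itself was called for 1033 genes against no metal, 455 higher and 578 lower with CuSO4, and for 557 against ZnSO4, 132 higher and 425 lower. With the block these interactions were higher for 693 and 261 genes. The latter total was 348 without statin with CuSO4 replicate 1, 1034 without replicate 2, 851 without replicate 2 of both groups and 345 without CuSO4 replicate 1.

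Sterol genes illustrate both the shared and the differing changes. The ergosterol branch rose in 15 of 16 genes without metal and 16 of 16 with ZnSO4, and the interaction was called, higher with CuSO4, for 5 of 16. ERG3 rose by 2.13 ± 0.15 without metal (interaction 1.09 ± 0.22, adjusted p = 0.00259), ERG25 by 1.74 ± 0.14 (interaction 1.10 ± 0.19) and ERG5 by 1.30 ± 0.11 (interaction 1.19 ± 0.16). The statin change with CuSO4 differed from that with ZnSO4 for 0 of the 16 by limma (3 at an unadjusted p under 0.05; over all genes 9.94% differed), and ERG3 rose there by 2.88 ± 0.17. The levels of ERG3 under statin were close in the groups, with means of 0.70 with CuSO4, 0.80 without metal and 0.79 with ZnSO4, whereas without statin they were -2.52, -1.32 and -2.09. PBI1 and HES1 rose by 5.44 ± 0.13 and 5.19 ± 0.18 without metal, and their interactions were -0.35 ± 0.18 (adjusted p = 0.219) and -0.23 ± 0.26 (adjusted p = 0.599). UPC2 rose by 2.54 ± 0.20 without metal, with an interaction of -0.04 ± 0.28 (adjusted p = 0.936). A missed threshold does not show that these changes were alike.

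**Figure D4:**
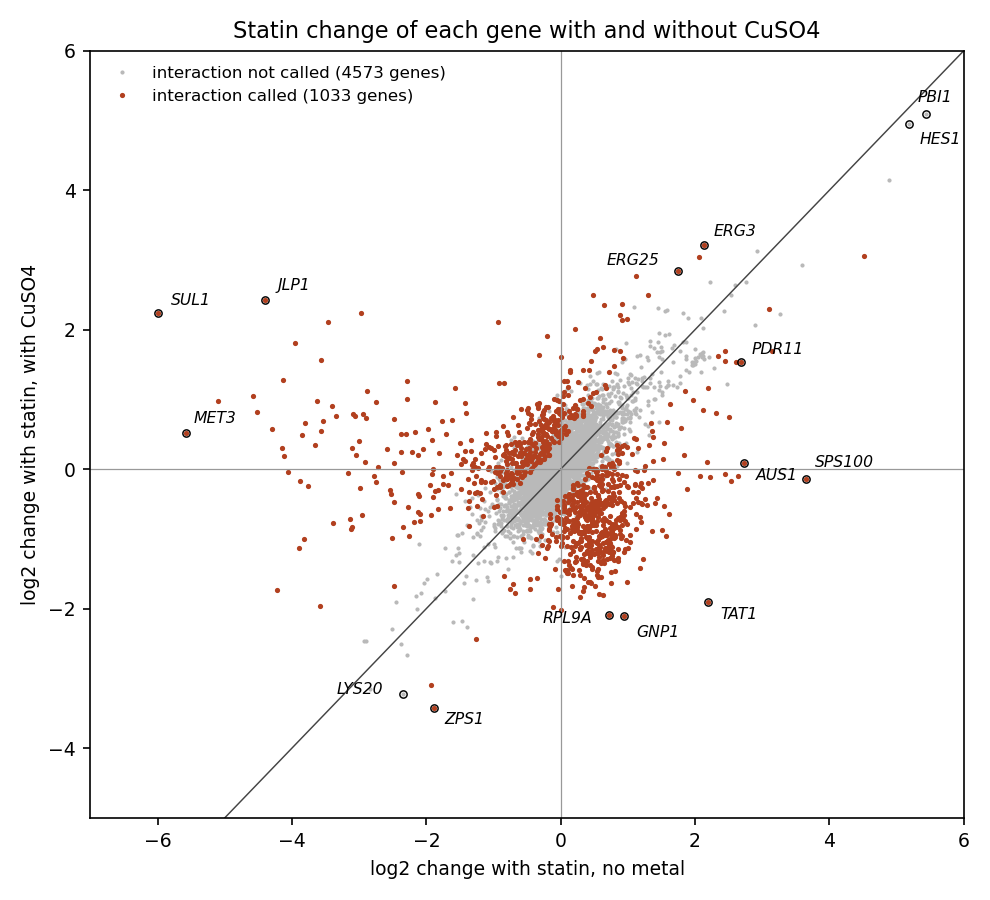
Log2 change with statin in cells without metal (horizontal axis) and in cells with CuSO4 (vertical axis) for the 5606 genes; red points are the 1033 genes whose changes differed by the interaction test and the line marks equal changes. Of the labelled genes, SUL1, MET3 and JLP1 lie far left of 0 and above it on the vertical axis, while TAT1, GNP1 and RPL9A lie below 0 on the vertical axis and above 0 on the horizontal.

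**Figure D5:**
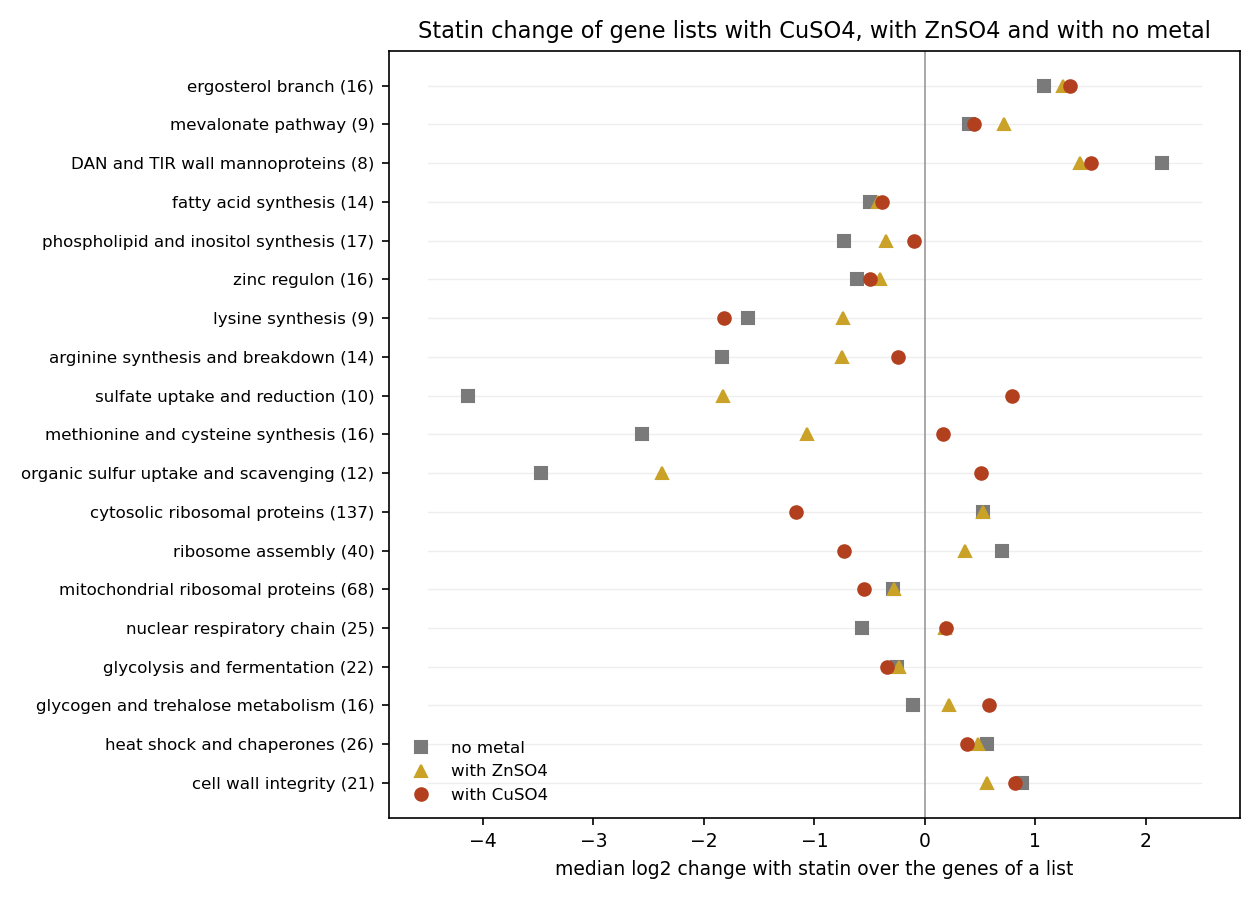
Median log2 change with statin over the genes of 19 lists (number of genes in brackets) with no metal (squares), with ZnSO4 (triangles) and with CuSO4 (circles). The 3 medians lie close for the ergosterol branch, whereas cytosolic ribosomal proteins have medians of 0.53, 0.52 and -1.17 and sulfate genes -4.14, -1.83 and 0.79.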

How the data were processed

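RNA of 17 biological samples was hybridised to 23 Agilent arrays, sample in Cy3 and reference in Cy5 throughout. The authors used Agilent Feature Extraction, version 10.5.1.1 as listed in the submitters' notes. The deposited files give each spot's median intensity and background intensity in both channels, per the file headers. The authors' deposited value file holds log10 ratios, equal to the scanner's log10 ratio with the sign turned (within 5e-06; column medians 0 to 0.00326).

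From the deposited intensities, background was corrected by normexp (offset 50), and loess ran within each array with weight 0 for 536 control spots of 12512 and for outlier spots. The result was turned to log2 sample over the authors' pooled reference. The labels state the dyes, so the direction was kept although some arrays correlated at down to -0.564. The 2 spots of each of 6256 probes were averaged, then the arrays of 1 sample (r = 0.944 to 0.993). Testing required both spots well above background in Cy3 on all arrays of 1 or more groups, which left 5606 genes and removed 650. Compared samples had 4 missing values, and 0 spots were saturated. The R64 annotation held 5756 of the probes' names.

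limma 3.58.1 (R 4.3.3, data.table version 1.17.8) fitted all 6 groups together (11 residual degrees of freedom) with two-sided tests, and the steps were checked on simulated data. Interactions are the statin change with CuSO4 minus that without metal or with ZnSO4. The number of arrays limits the precision. Deviations from the group mean in same-numbered samples of the compared groups correlated at r = 0.111, 0.430 and 0.355 for replicates 1, 2 and 3. Between different numbers r was -0.428 to 0.272. Statin with CuSO4 replicate 1 was closer to CuSO4 replicate 3 (0.272) than to its own number. Each number had its own slide, so a fit with the number as a block was also made. The members and gene lists were chosen with earlier results of these data known. By rule, named genes came from the 12 largest rises and 12 largest falls without overlap, up to 6 members of each list by p, the 8 largest interactions each way, up to 10 genes with opposite changes, and fixed controls; the text gives some of these. Alternatives changed the background correction, normalization, filter, groups fitted, arrays per sample and replicates.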

Additional observations from a re-analysis of the deposited data

Results flagged for a closer look

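The statin change of 1033 genes differed between cells with CuSO4 and cells without metal, and that of 557 genes between CuSO4 and ZnSO4 (limma, tests of the difference itself). The values below are the log2 change with CuSO4 minus that without metal for the named genes that passed this test, so that a positive value means a higher change with CuSO4. In groups of 3 samples no sample was tested as an outlier. Sterol, lipid and hypoxic genes had differences of 1.09 for ERG3, 1.10 for ERG25, 1.19 for ERG5, -1.14 for PDR11, -2.64 for AUS1, -1.45 for TIR4, -1.45 for RTA1, -2.82 for YMR317W, 0.73 for NSG2, 0.81 for HNM1, -0.80 for YSR3, 1.10 for YPC1, -1.05 for AAC3 and -1.72 for ANB1. Sulfur genes had differences of 8.22 for SUL1, 6.08 for SUL2, 6.10 for MET3, 5.42 for MET10, 2.75 for MET30, 4.10 for CYS3, 5.78 for YCT1, 6.83 for JLP1, 3.04 for HSU1 and 5.57 for PDC6. Metal genes had differences of -0.95 for ZRT1, -1.54 for ZPS1, -0.96 for ADH4, -0.94 for FET3 and -1.26 for ENB1. Amino acid genes had differences of -1.19 for LYS4, 2.49 for ARG1, 1.62 for ARG3, -0.98 for CAR1, -4.10 for TAT1 and -3.04 for GNP1. Genes of ribosomes and their assembly had differences of -2.81 for RPL9A, -1.84 for RPS18A, -2.04 for RPL31B, -2.14 for RPL24A, -1.60 for NOP1, -2.51 for NSR1 and -2.60 for DBP2. Genes of respiration, stress, wall and transport had differences of 0.89 for SDH2, 1.09 for SDH4, 1.10 for QCR6, 1.71 for HSP26, 2.11 for OYE3, 1.66 for TMA10, 0.97 for NRG2, -1.87 for CWP1, -3.81 for SPS100, 1.60 for TPO4, 0.81 for PDR12 and 2.01 for PHO84.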

How the results depend on the processing

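The count of genes changed by statin in CuSO4 stayed within 1.5 times of 2486 under every alternative except leaving out all arrays of slide 3, an alternative added after the data were seen, which removes a sample from each group. Then 1575 genes were called (731 higher, 844 lower), the interaction against no metal 381 (135 higher, 246 lower) and that against ZnSO4 0 by limma (0 higher, 0 lower), where statin with ZnSO4 kept 1 sample, assumed to vary like the other groups. The same setting gave 3 higher and 0 lower mevalonate genes, 20 lower ribosome assembly genes, 8 higher and 1 lower heat shock genes, 1 lower cell wall gene and 0 higher zinc regulon genes, and SPS100 at 0.21. With the replicate number as a block, 3055 genes were called, 2482 of them among the 2486, and interactions higher with CuSO4 came to 693 against no metal and 261 against ZnSO4. The block gave 11 higher genes of sterol uptake, 1 higher cytosolic and 1 higher mitochondrial ribosomal protein gene, added calls for CUP1-1, YCT1 and MET30 and for the interactions against no metal of HMG1, ERG10, CHO1, COX17 and NTH1, and changed no other such call of a gene named in the text. It also raised by 1 the genes that rose in the fatty acid, permease, hypoxic and sulfur regulator lists and those that fell in the glucose-repressed, oxidative, respiratory and general stress lists. The interaction against ZnSO4 was the least stable count, with 303 genes (50 higher, 253 lower) with only the groups compared in the fit and 305 (54 higher, 251 lower) with scaling between arrays. Mevalonate genes called lower were 0 under both settings. Scaling put 1 DAN or TIR gene lower, AUS1 at -0.0677 and CTR1 at -0.52. Median centring without loess gave 7 lower heat shock genes and CUP1-1 at -0.0101. CTR1 was at -9e-04 with a normexp offset of 16 and at -0.0566 with the authors' ratios. Probes above background on all arrays left 2 lower sterol uptake genes, and 1 array per sample left 1 lower cell wall gene.

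Leaving out each replicate of the compared groups in turn, or replicate 2 of both (added after the data were seen), gave 345 to 1034 genes for the interaction against ZnSO4 (58 to 387 higher, 281 to 647 lower), 21 to 35 lower ribosome assembly genes, 0 to 8 higher sulfate genes, 0 to 1 lower mevalonate genes, 0 to 2 higher zinc regulon genes, 1 to 2 lower cell wall genes and 2 to 4 lower heat shock genes. The ranges for genes that were not called were -0.28 to 1.92 for MET3, -0.0239 to 0.14 for AUS1, -0.12 to 0.13 for CTR1, -0.45 to 0.11 for SPS100 and -0.0357 to 0.12 for HMG2. Without statin with CuSO4 replicate 2, 8 further named genes were called (SUL1, SUL2, MET3, MET10, MET30, YCT1, CYS3 and PDC6), and without replicate 2 of both groups the same genes except MET3. The latter ended the interaction calls of HNM1, YSR3 and FET3. Calls of the statin change in CuSO4 were lost for IDI1, JLP1 or QCR6 under some alternatives, and also for ERG8, HNM1 and ANB1 without slide 3. The interaction of HSP26 lost its call under most alternatives. The cause of these differences was not tested, apart from the smaller number of samples where some were left out. Slide 3, with the fewest spots well above background, and 3 samples a group limit what small changes could be called.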

Other observations

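Further gene lists complete the picture of copper-supplied cells, where 21.1% of all genes rose and 23.3% fell with statin. With statin alone 18% of all genes rose and 18.8% fell. Of 6 regulators of sulfur genes 1 rose and 1 fell (median 0.50), and without statin with CuSO4 replicate 2 4 rose and 1 fell (2 and 1 without replicate 2 of both groups). Iron-sulfur and heme enzymes outside the respiratory chain had 2 of 16 genes higher and 5 lower (median -0.08; 5 higher and 6 lower without that replicate), and heme synthesis had 2 of 8 higher and 2 lower (1 and 2 without it). The citric acid cycle had 3 of 17 genes higher and 5 lower, whereas statin alone lowered 12 of them and raised 2. Genes repressed by glucose, which serve the use of other carbon sources, were higher in 8 of 17 cases and lower in 2 (median 0.36). Folding genes of the endoplasmic reticulum had 2 of 16 higher and 1 lower (2 higher and 4 lower without that replicate), with medians within slides of -0.15, 0.66 and -0.52. Copper uptake and delivery had 1 of 8 genes higher and 2 lower. The a-cell and mating genes had 1 of 12 higher and 3 lower (5 with the replicate number as a block), and the alpha-cell genes 2 of 3 lower (1 without that replicate).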
